A study of Mus musculus with 9 samples.

Results

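The mitochondrial ribosomal protein genes were taken as all rows of the expression table whose symbol starts with Mrpl or Mrps followed by a digit. There were 78 of them among 20926 genes, 49 Mrpl genes for the large subunit and 29 Mrps genes for the small subunit. RNA from blood was sequenced in 9 male DBA/1 mice, labelled as 7 weeks old, with 3 mice in each of 3 groups. The study gives that age for the division into groups, before the injections and the irradiation. The age at blood sampling is not stated. Ctrl mice were not irradiated and had no arthritis. CIA mice had collagen-induced arthritis, a model of rheumatoid arthritis made by injecting chick type II collagen in Freund's adjuvant, with a booster, and were not irradiated. In the CIA+THz group arthritic mice were exposed at the swollen ankle to 0.1 THz radiation for 30 min per day over 14 days, under isoflurane anaesthesia. Strain and sex were shared by all groups, and the irradiation was at the ankle while the RNA came from the circulation. Symbols were taken at face value, although not every product lies where its symbol places it. For example, the product of Mrps30 is now placed in the large subunit and that of Mrps36 in the 2-oxoglutarate dehydrogenase complex.

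The mitochondrial ribosome sits in the mitochondrial matrix and makes the few respiratory chain subunits that are encoded by mitochondrial DNA. All of its proteins are encoded in the nucleus, translated in the cytosol and imported, while its ribosomal RNAs come from the mitochondrial genome. In blood, lymphocytes, monocytes and platelets carry mitochondria, neutrophils rely mainly on glycolysis, and red cell precursors hold many mitochondria for haem synthesis but shed them as they mature. Messages of these genes are nuclear transcripts, and their levels measure neither the proteins nor the activity of the ribosome.

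The authors deposited FPKM values, a unit that corrects fragments for gene length and sequencing yield, so levels of different genes can be set side by side. The deposited values were divided by 1 median-of-ratios factor per library, between 0.847 and 1.24, and are called rescaled FPKM below. The rescaling lowered CIA+THz by 0.28 against CIA and by 0.31 against Ctrl on the log2 scale, while CIA against Ctrl moved by 0.03. The differences that involve CIA+THz depend on this step, and the values without it are given beside the results it changes. From the ratios of low values, the CIA+THz libraries were 1.35 to 1.87 times as deep as Ctrl 1, the CIA libraries 1.01 to 1.28 times and the Ctrl libraries 1.00 to 1.10 times; the absolute depth is unknown. Although the samples are labelled as blood leukocytes, Alas2, the haem synthesis enzyme of red cell precursors, took 11.4% to 16.7% of the summed FPKM of a library, beside the 8 pan-leukocyte markers, all above 0 in all 9 libraries. In such bulk RNA, fewer cells of a type and less RNA per cell cannot be told apart.

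All 78 genes were measured, and 77 were above 0 in all 9 libraries. The exception was Mrpl47, which was listed at 0 in Ctrl 2. All 78 also passed the filter of a mean rescaled FPKM of at least 0.1, so none was lost. Mean levels ran from 1.02 to 48.1 rescaled FPKM with a median of 7.77, against a median of 4.96 over the 12366 genes tested and of 439 over the 84 cytosolic ribosomal protein genes. The median was 7.78 for the large subunit and 6.50 for the small subunit. The proteins of 1 ribosome were thus not matched by equal message levels: the highest gene lay 47.1 times above the lowest, with 29 genes at 10 or more and 9 genes under 2.

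Mrpl30, a large-subunit protein with a bacterial counterpart, had the highest level, and it ranked first in every library. Its rescaled FPKM was 41.7, 37.9 and 38.9 in Ctrl, 54.8, 48.9 and 55.2 in CIA and 50.2, 57.9 and 47.4 in CIA+THz. Mrpl10, which forms the base of the stalk where translation factors dock, followed with a mean of 35.3 and ranked between 2 and 5. Mrps26, a small-subunit protein particular to mitochondria, averaged 27.6, Mrpl20 averaged 27.1 and Mrpl32, which is matured by a mitochondrial inner membrane protease after import, averaged 25.8. The ranges over libraries of these last 3 genes overlapped, at 18.3 to 35, 22 to 34.7 and 19.5 to 36.1, so their order is not fixed beyond their spread. At the other end were Mrpl15 with a mean of 1.02, Mrpl55 with 1.28 and Mrpl46 with 1.33, whose ranges also overlapped.

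**Figure D1:**
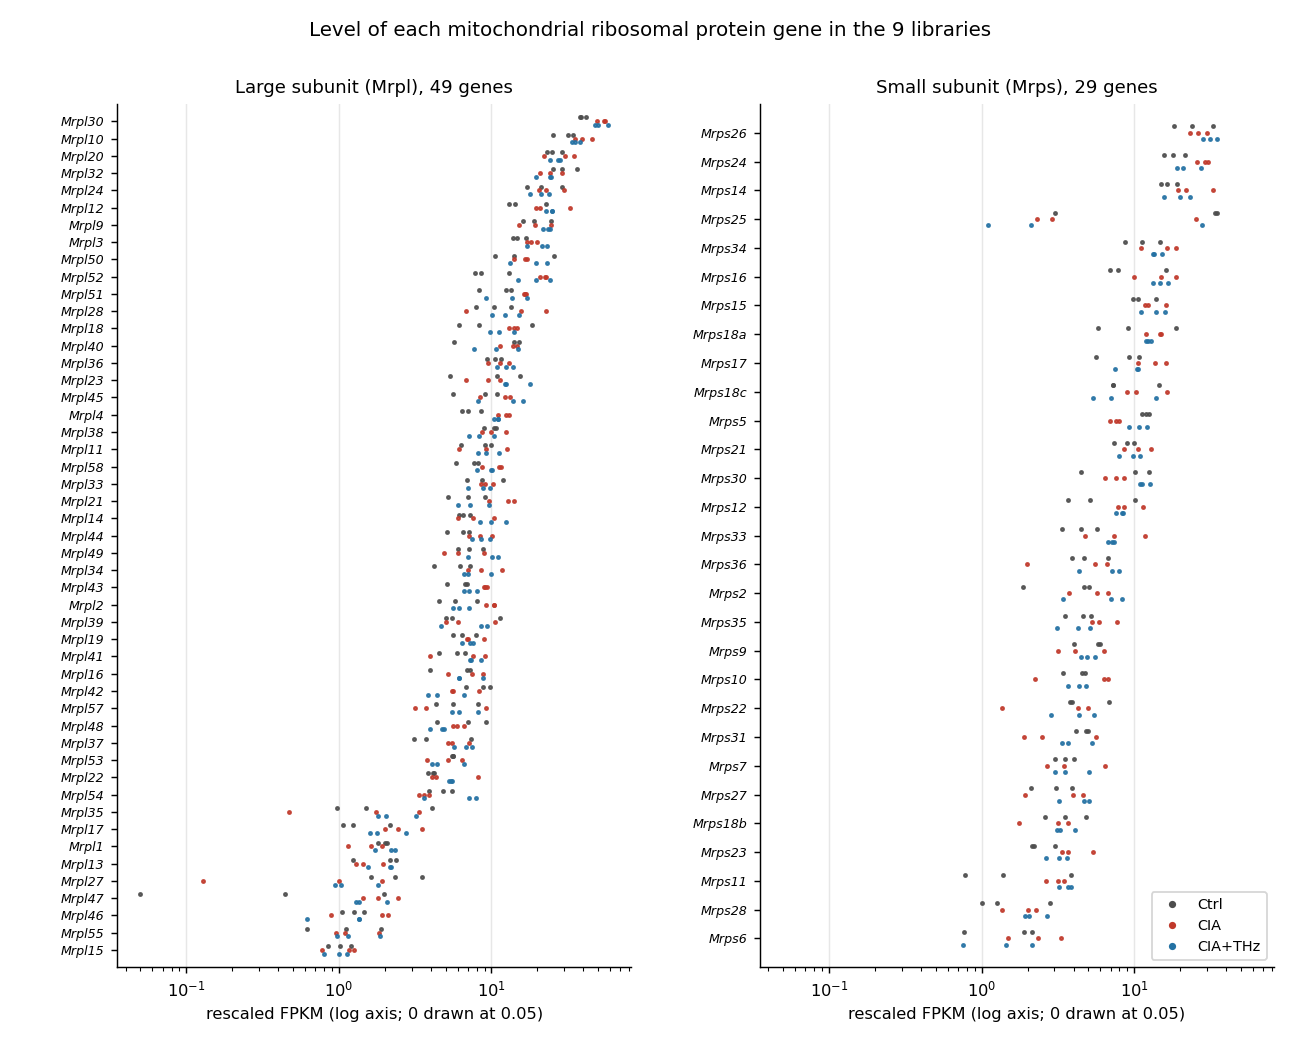
Rescaled FPKM of each mitochondrial ribosomal protein gene on a log axis, ordered by mean within the large (left) and small (right) subunit, with 1 dot per library coloured by group. Mrpl30 lies highest and Mrpl15 lowest, and the dots of Mrps25 fall into a high and a low cluster that each hold all 3 groups.

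The spread between mice of a group was moderate for most of the genes. The within-group SD on the log2 scale had a median of 0.36 over the 78 genes and was lowest for Mrpl30, at 0.11. It was above 1 for 3 genes, Mrps25, Mrpl47 and Mrpl27, which were singled out here after their values were seen. For Mrpl47 the fold changes against Ctrl rest on the library at 0 and on the pseudocount. No fold change of Mrpl47 is given singly, but the gene stays in the counts and medians of the 78.

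Mrps25, a small-subunit gene, split the libraries into levels that did not follow the groups. Its rescaled FPKM was 33.8, 34.7 and 3.04 in Ctrl, 2.31, 25.4 and 2.90 in CIA and 27.9, 2.12 and 1.10 in CIA+THz. High libraries were thus present in all 3 groups, and no comparison of Mrps25 passed the test. The gene lies on the reverse strand of chromosome 6 (GRCm38, 92169525 to 92184033), and 4590 bases of its annotated exons are shared with Nr2c2, a nuclear receptor gene on the opposite strand. Nr2c2 was at 23.0, 20.9 and 21.6 in Ctrl, at 18.8, 14.8 and 21.4 in CIA and at 6.25, 20.7 and 18.9 in CIA+THz. It was lowest in CIA+THz 1 and CIA 2, both libraries in which Mrps25 was high, but not in Ctrl 1 and Ctrl 2, where Mrps25 was also high. The library kit named in the labels does not mark strand, so reads of this overlap could be given to either gene, and its part in the split was not tested.

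**Figure D2:**
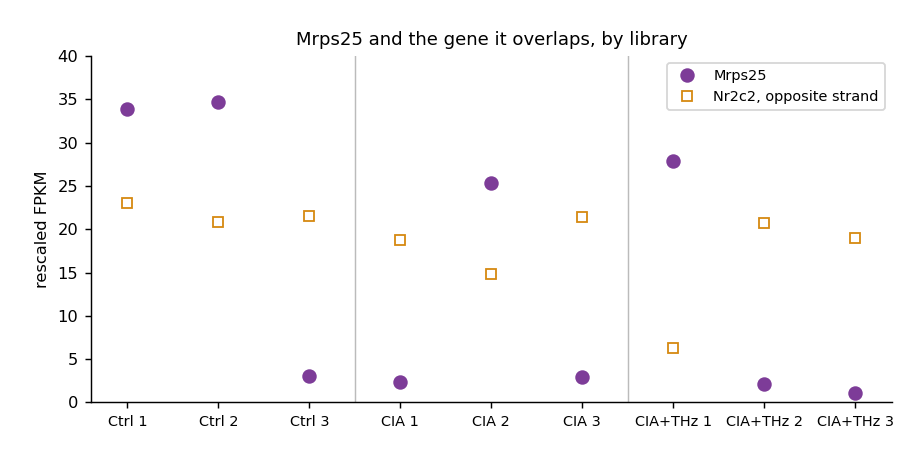
Rescaled FPKM of Mrps25 (filled circles) and of Nr2c2, the gene on the opposite strand that shares 4590 exon bases with it (open squares), in each of the 9 libraries. Mrps25 is at 25.4 or above in 4 libraries and at 3.04 or below in the other 5, with both levels present in every group.

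The comparison of CIA with Ctrl takes arthritis together with the injections that induced it. No injection is described for Ctrl mice, so their parts cannot be told apart here or in CIA+THz against Ctrl. Most mitochondrial ribosomal protein genes had a fold change above 0 in CIA, few passed the test, and 1 gene of the large subunit stood out. Mrpl52, a large-subunit protein without a bacterial counterpart, was at 7.77, 8.50 and 13 rescaled FPKM in Ctrl and at 20.8, 22.8 and 22.5 in CIA. The groups did not overlap, and the log2 fold change was 1.21 ± 0.21 (SE, n = 3 against 3; limma, unadjusted p = 0.000604, adjusted p = 0.0669). Of the 78 genes, 57 (73.1%) had a fold change above 0, against 49.3% of all genes tested, and the median log2 fold change was 0.24 against -0.01 over all genes tested. It was 0.20 for the 49 large-subunit genes and 0.27 for the 29 small-subunit genes.

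At an unadjusted p under 0.05, 13 genes (16.7%) were higher in CIA, against 8.85% of all genes tested, and 1 gene (1.28%) was lower, against 8.45%. The study's criterion adds an absolute log2 fold change above 0.67, and it was met by 6 genes (7.69%) that rose, against 4.79% of all genes, and by 0 that fell, against 4.25%. The values of CIA and Ctrl did not overlap for 14 genes (17.9%) that were higher and for 2 (2.56%) that were lower, against 11.8% of all genes in each direction. With the Benjamini-Hochberg adjustment limma called 0 of the 78, against 0.154% of all genes, and 14 at an unadjusted p under 0.05. The shares above the background were thus those of the higher genes.

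The other 5 genes past the criterion in CIA were Mrpl21, Mrpl2, Mrpl4, Mrps23 and Mrps17. Mrpl4, whose bacterial counterpart lines the exit tunnel of the growing chain, was at 6.37, 8.56 and 7.04 in Ctrl and at 13, 12.4 and 11 in CIA. Its log2 fold change was 0.73 ± 0.17 (SE; limma, unadjusted p = 0.00378, adjusted p = 0.115). The groups were apart, and within each group the values lay close together.

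Mrpl2, whose bacterial counterpart lies near the peptidyl transferase centre, was at 8.04, 5.77 and 4.51 in Ctrl and at 10.4, 10.5 and 9.15 in CIA (log2 fold change 0.74 ± 0.24, SE). Mrpl21, a further large-subunit protein with a bacterial counterpart, was at 9.07, 7.07 and 5.18 in Ctrl and at 12.8, 14.0 and 9.61 in CIA (0.78 ± 0.25, SE). For both, every CIA library lay above every Ctrl library, and the unadjusted limma p was 0.0157 and 0.0166. Mrpl2 lost the criterion without Ctrl 3, CIA 1 or CIA 2 and with a pseudocount of 1, and Mrpl21 without Ctrl 3, CIA 1 or CIA 2.

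Mrps23, a mitochondria-specific protein of the small subunit, was at 2.22, 2.13 and 3.00 in Ctrl and at 5.37, 3.69 and 3.34 in CIA (0.72 ± 0.29, SE; limma, unadjusted p = 0.0402). Mrps17, a small-subunit protein that binds ribosomal RNA and was named after its values were seen, was at 9.17, 5.59 and 10.8 in Ctrl and at 10.6, 13.7 and 16.2 in CIA (0.69 ± 0.28, SE; unadjusted p = 0.0440). The groups of Mrps17 overlapped, since CIA 1 lay below Ctrl 3. These 2 genes passed the criterion under 7 and 6 of 15 alternatives, against 15 of 15 for Mrpl52 and 13 of 15 for Mrpl4. Mrps23 lost it without Ctrl 1, Ctrl 2, CIA 1 or CIA 2, Mrps17 without Ctrl 1, Ctrl 2, CIA 2 or CIA 3, and Mrpl4 without Ctrl 1.

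**Figure D3:**
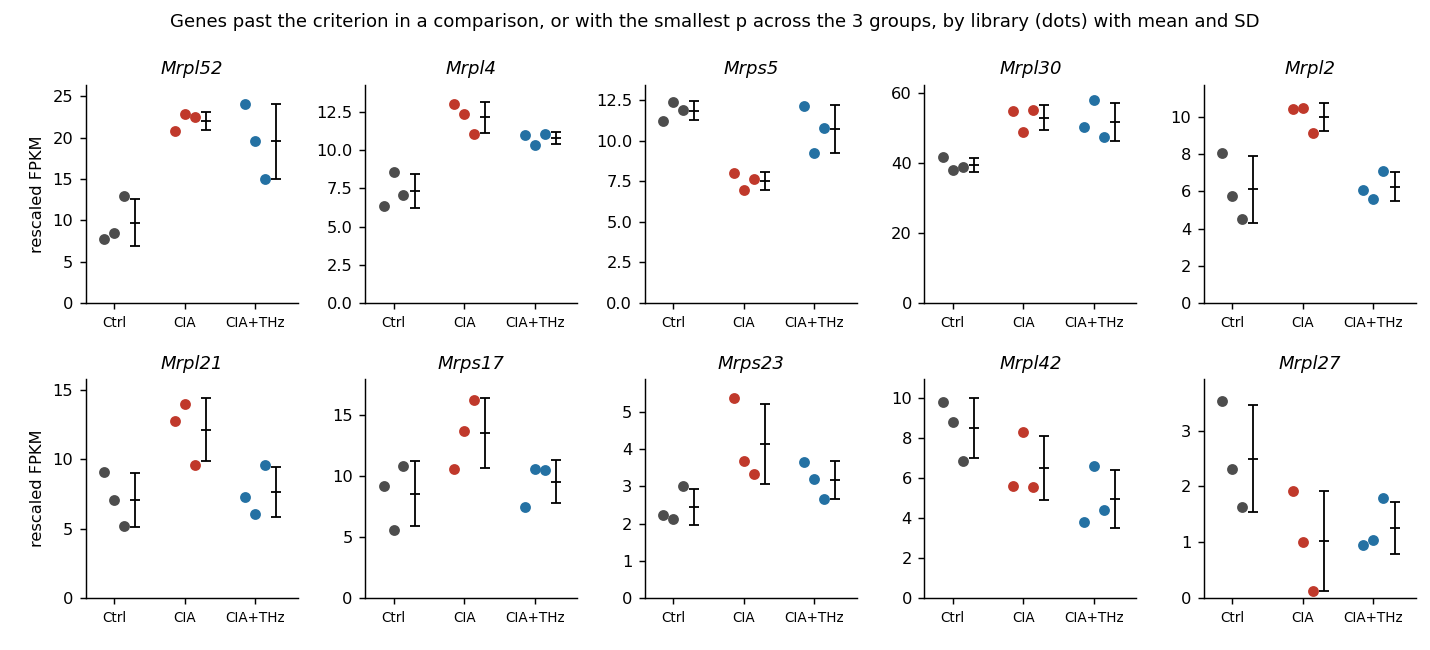
Rescaled FPKM by library (dots) with the mean and SD of each group (n = 3) for 10 genes that passed the criterion in a comparison or had 1 of the 5 smallest p values across the groups. Mrpl52 is higher in all 6 CIA and CIA+THz libraries than in any Ctrl library, while Mrps5 is lowest in the 3 CIA libraries.

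Mrps5, the counterpart of the bacterial protein at the entry channel for messenger RNA, was the only gene of the 78 that was lower in CIA at an unadjusted p under 0.05. Its rescaled FPKM was 11.2, 12.4 and 11.9 in Ctrl, 8.0, 6.96 and 7.62 in CIA and 12.2, 9.24 and 10.8 in CIA+THz. The CIA libraries were thus below all others. The log2 fold change of CIA against Ctrl was -0.65 ± 0.15 (SE; limma, unadjusted p = 0.00290, adjusted p = 0.105), just inside the fold limit of 0.67, so that Mrps5 did not meet the criterion. It kept an unadjusted p under 0.05 in 15 of 15 alternatives, with fold changes between -0.69 and -0.59.

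Promoter sequences are shown of genes past the criterion in CIA, to show whether genes that were higher together share motif letters, and of Mrpl10 and Mrpl22, which hold the NRF1 letters; Mrpl22 was chosen after its sequence and values were seen. Of the 6 genes, Mrpl4 had no promoter in the table, and the window of Mrpl21 reaches beyond the bases given and is not printed. RefSeq gave a promoter on GRCm38.p6 for 69 of the 78 genes. Each window below is the 160 bases upstream of the more upstream of the RefSeq and GENCODE starts, read 5′ to 3′ on the strand of the gene. Capitals mark motif matches on either strand. Searched first were the letters GCGCATGC, from the site of NRF1, a regulator of nuclear genes for mitochondria. For the ETS family, which includes the GABP regulator of such genes, the letters were CCGGAAG. The factor YY1 was searched as AAGATGGC. For the GC box, bound by factors of the Sp family, the letters were GGGCGG. An E-box, a site of basic helix-loop-helix factors such as Myc, was searched as CACGTG. The core promoter element called the TATA box, where the general initiation machinery can assemble, was searched as TATAAA. Motifs could overlap in the search, and no matches overlap in these windows. The windows are chr14:54426749-54426908 (+) for Mrpl52, chr17:46646061-46646220 (+) for Mrpl2, chr11:88204228-88204387 (+) for Mrps23, chr5:129715337-129715496 (+) for Mrps17, chr11:97041400-97041559 (+) for Mrpl10 and chr11:58171501-58171660 (+) for Mrpl22.
Mrpl52: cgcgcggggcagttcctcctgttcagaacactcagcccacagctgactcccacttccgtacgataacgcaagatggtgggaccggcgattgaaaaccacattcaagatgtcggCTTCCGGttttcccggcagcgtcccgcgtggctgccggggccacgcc
Mrpl2: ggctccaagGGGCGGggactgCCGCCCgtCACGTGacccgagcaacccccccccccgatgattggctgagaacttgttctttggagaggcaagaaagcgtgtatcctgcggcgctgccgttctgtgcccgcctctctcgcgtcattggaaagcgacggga
Mrps23: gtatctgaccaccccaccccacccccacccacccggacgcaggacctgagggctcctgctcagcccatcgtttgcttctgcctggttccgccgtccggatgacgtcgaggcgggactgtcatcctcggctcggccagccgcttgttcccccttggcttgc
Mrps17: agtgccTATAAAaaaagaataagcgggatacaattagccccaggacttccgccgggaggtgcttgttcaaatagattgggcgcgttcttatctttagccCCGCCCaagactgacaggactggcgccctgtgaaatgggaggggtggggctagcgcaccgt
Mrpl10: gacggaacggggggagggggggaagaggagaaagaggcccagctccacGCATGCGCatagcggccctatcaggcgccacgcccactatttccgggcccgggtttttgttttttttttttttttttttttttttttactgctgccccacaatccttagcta
Mrpl22: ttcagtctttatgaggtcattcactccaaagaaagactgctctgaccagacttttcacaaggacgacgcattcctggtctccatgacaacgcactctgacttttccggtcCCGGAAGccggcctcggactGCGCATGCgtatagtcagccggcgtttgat

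The 4 windows of genes past the criterion in CIA shared none of the searched motifs among all of them. Mrpl52 held an ETS match, Mrpl2 a pair of GC boxes and an E-box, and Mrps23 no match. Mrps17 held a GC box and the TATAAA letters, which began 154 bases before the RefSeq start. Over the 250 bases before the RefSeq start, the ETS letters were present in 18 of 69 promoters (26.1%), against 15.7% of the promoters of genes tested. The NRF1 letters were present in 8 (11.6%), against 4.97%, and the YY1 letters in 4 (5.80%), against 2.39%. GC boxes were present in 33 (47.8%), against 62.3%, E-boxes in 5 (7.25%), against 9.77%, and the TATAAA letters in 5 (7.25%), against 7.99%. These are counts of letters and were not tested as binding sites. Mrpl4, Mrpl13, Mrpl15, Mrpl19, Mrpl38, Mrpl54, Mrps28, Mrps34 and Mrps35 had no promoter in the table.

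In the comparison of CIA+THz with CIA, which addresses the irradiation under anaesthesia, the mitochondrial ribosomal protein genes as a set stayed near the other genes. Anaesthesia is described only for the irradiated mice, so its part and that of the radiation cannot be told apart. The median log2 fold change of the 78 was -0.05, against 0.03 over all genes tested, and 36 (46.2%) had a fold change above 0, against 52.9% of all genes. The median was -0.04 for the large and -0.06 for the small subunit. With the FPKM as deposited the median was 0.22 and that of all genes 0.29, and 61 of the 78 were higher, so the sign of the median depends on the scaling. On either scale it lay below the median of all genes.

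Mrpl2 alone passed the criterion, a call that was lost without CIA 1, CIA 2, CIA+THz 1 or CIA+THz 2 and with a pseudocount of 1 or another scaling. It was at 10.4, 10.5 and 9.15 rescaled FPKM in CIA and at 6.08, 5.58 and 7.11 in CIA+THz, and all CIA+THz libraries were below all CIA libraries. The log2 fold change was -0.67 ± 0.15 (SE; limma, unadjusted p = 0.00290, adjusted p = 0.210). Its mean of 6.26 ± 0.78 (SD, n = 3) in CIA+THz was close to the 6.11 ± 1.79 (SD, n = 3) of Ctrl, with a difference of 0.07 ± 0.24 (SE) on the log2 scale. The same CIA libraries enter CIA against Ctrl, so a deviation in them moves both comparisons in opposite directions. That also holds for Mrps5 and Mrpl21 below. The direction of Mrpl2 held in all 15 alternatives, from -0.77 to -0.36, with an unadjusted limma p under 0.05 in each.

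The criterion was thus met by 0 genes that rose, against 2.94% of all genes, and by 1 that fell (1.28%), against 1.6%. On the FPKM as deposited the split was 5 that rose (6.41%), against 9.14% of all genes, and 0 that fell, against 0.533%, so there too the higher share was below the background. Mrps5 was 1 of the 5. At an unadjusted p under 0.05, 3 genes were higher (3.85%), against 5.89%, and 5 were lower (6.41%), against 7.33%. The groups did not overlap for 3 higher (3.85%) and 7 lower (8.97%) genes, against 9.38% and 10.2%. The adjusted limma p called 0 of the 78, as it called 0% of all genes. These shares were at or below the background in each direction.

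The 3 genes higher in CIA+THz were Mrps30, Mrps5 and Mrpl23, and the 5 lower were Mrpl2, Mrpl21, Mrpl43, Mrpl48 and Mrps35. Of these, Mrps30, Mrpl23, Mrpl43, Mrpl48 and Mrps35 were named after their values were seen. Mrps30, which has no bacterial counterpart, was at 7.57, 6.44 and 8.60 in CIA and at 12.7, 11 and 11.2 in CIA+THz. Its log2 fold change was 0.63 ± 0.15 (SE; limma, unadjusted p = 0.00466, adjusted p = 0.221), while Ctrl ranged from 4.50 to 12.5 and overlapped both groups. Mrps5 exceeded its CIA level by 0.50 ± 0.15 (SE; unadjusted p = 0.0128) and was not apart from Ctrl, with a difference of -0.15 ± 0.15 (SE). Mrpl21 fell from a mean of 12.1 ± 2.28 (SD, n = 3) in CIA to 7.64 ± 1.80 in CIA+THz, by 0.67 ± 0.22 on the log2 scale (SE; unadjusted p = 0.0201), just under the fold limit, and its highest CIA+THz and lowest CIA library were both at 9.61.

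**Figure D4:**
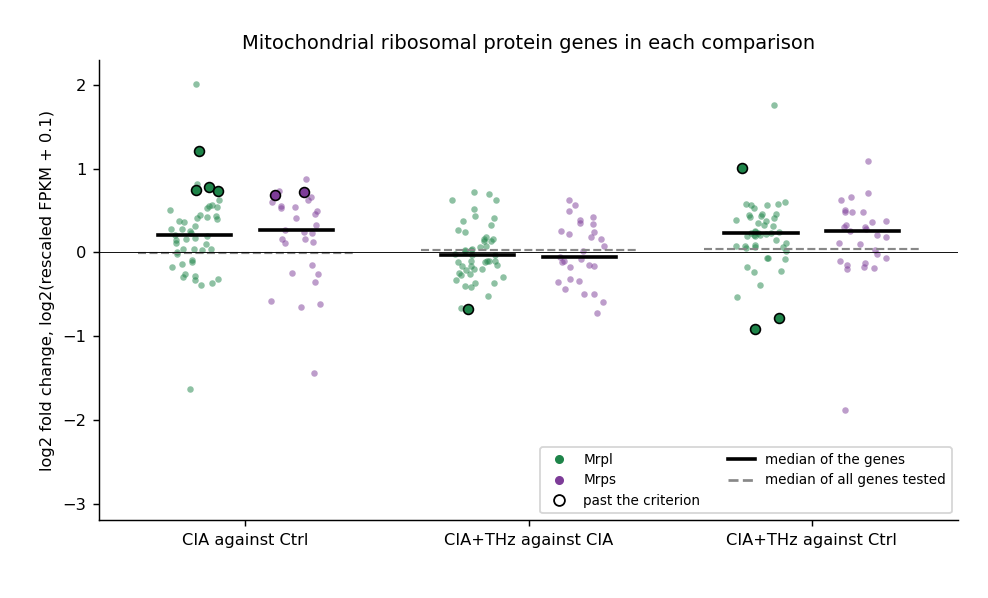
Log2 fold change of each large-subunit (green) and small-subunit (purple) gene in the 3 comparisons, with genes past the criterion ringed, the median of each subunit as a black line and the median of all genes tested as a dashed line. In both comparisons with Ctrl the subunit medians lie between 0.20 and 0.27, above the dashed line, and in CIA+THz against CIA they lie just below it.

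In the comparison of CIA+THz with Ctrl, Mrpl52 was the 1 gene past the criterion that was above Ctrl. It was at 24.1, 19.6 and 15.0 rescaled FPKM in CIA+THz, all above the highest Ctrl library at 13, with a log2 fold change of 1.01 ± 0.25 (SE; limma, unadjusted p = 0.00410, adjusted p = 0.135). Against CIA it differed by -0.20 ± 0.18 (SE; unadjusted p = 0.300). Mrpl52 passed the criterion in 15 of 15 alternatives of this comparison, with fold changes between 0.84 and 1.32. Both comparisons share the Ctrl libraries.

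Of the 78 genes, 59 (75.6%) were higher in CIA+THz than in Ctrl, against 53.7% of all genes tested, with a median log2 fold change of 0.23 against 0.04. The criterion was met by 1 gene that rose (1.28%), against 4.64% of all genes, and by 2 that fell (2.56%), against 3.24%. On the FPKM as deposited 19 rose (24.4%), against 12.9% of all genes, and 0 fell, against 0.968%. The share that rose thus lay below the background after rescaling and above it without rescaling. At an unadjusted p under 0.05, 9 genes were higher (11.5%), against 8.39%, and 3 were lower (3.85%), against 9.69%. The groups did not overlap for 9 higher (11.5%) and 2 lower (2.56%) genes, against 11.9% and 12%. The adjusted limma p called 0 of the 78, against 0.105% of all genes.

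The genes that fell were Mrpl42 and Mrpl27. Mrpl42, a mitochondria-specific protein of the large subunit, was at 9.78, 8.83 and 6.84 in Ctrl, at 5.60, 8.33 and 5.53 in CIA and at 3.82, 6.60 and 4.41 in CIA+THz. The CIA+THz libraries lay below all Ctrl libraries, and the log2 fold change was -0.79 ± 0.25 (SE; limma, unadjusted p = 0.0145, adjusted p = 0.175). Mrpl27, whose bacterial counterpart reaches the peptidyl transferase centre, was at 3.52, 2.32 and 1.63 in Ctrl, at 1.92, 0.995 and 0.129 in CIA and at 0.946, 1.04 and 1.79 in CIA+THz. Its groups overlapped, and it was lost without Ctrl 1, Ctrl 2, CIA+THz 1 or CIA+THz 2 (log2 fold change -0.92 ± 0.39, SE; unadjusted p = 0.0491). Mrpl42 was lost without Ctrl 1, CIA+THz 1 or CIA+THz 3. Of 15 alternatives, Mrpl27 kept the criterion in 4 and Mrpl42 in 10. Neither passed on the FPKM as deposited, where the fold changes of both were still below 0.

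The summed level of the 78 genes shows the shift of the set in each library. It was 692, 736 and 690 rescaled FPKM in Ctrl, 884, 819 and 783 in CIA and 811, 804 and 784 in CIA+THz. All 6 arthritic libraries lay above the 3 Ctrl libraries, and CIA and CIA+THz overlapped. Abundant genes contribute most to this sum. The median over the 78 genes separated as well, at 6.17 to 7.10 in Ctrl, 8.02 to 8.66 in CIA and 7.51 to 8.06 in CIA+THz. The mean log2 level of the 78 did not, since CIA 3 at 2.72 lay below Ctrl 2 at 2.76. The large-subunit sum was 468 ± 23.4 (SD, n = 3), 558 ± 33.6 and 539 ± 14.3 in Ctrl, CIA and CIA+THz, and the small-subunit sum was 238 ± 2.70, 270 ± 20.3 and 261 ± 12.3. Without Mrps25, which was left out after its values were seen, the sum of the remaining 77 was 658, 701 and 687 in Ctrl, 881, 794 and 780 in CIA and 783, 802 and 783 in CIA+THz, with the same separation. The small-subunit sum without Mrps25 was 214 ± 16.1 (SD, n = 3), 260 ± 21.4 and 250 ± 5.80 in Ctrl, CIA and CIA+THz. The SD of 2.70 in Ctrl thus held only with Mrps25 in the sum. As a share of the summed FPKM as deposited, the 78 genes took 0.119% to 0.144% in Ctrl, 0.148% to 0.152% in CIA and 0.169% to 0.196% in CIA+THz. On that scale CIA+THz lay above CIA as well, beside the lower share of Alas2 in those libraries (11.4% to 14.0%, against 16.3% to 16.7% in CIA).

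**Figure D5:**
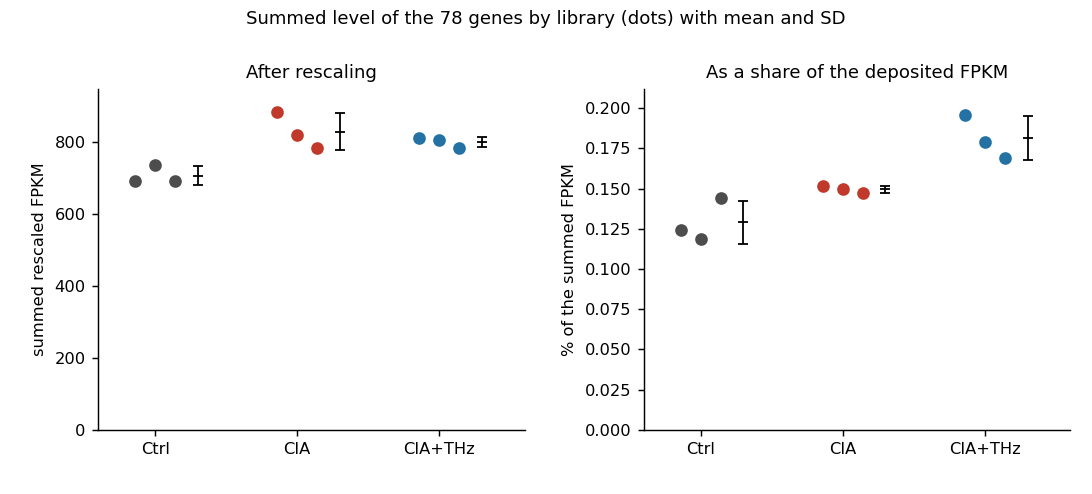
Summed level of the 78 genes in each library (dots) with the mean and SD of each group (n = 3), as rescaled FPKM (left) and as a percentage of the summed FPKM as deposited (right). After rescaling CIA and CIA+THz overlap, at 783 to 884 and 784 to 811, and as a share CIA+THz is highest, at 0.169% to 0.196%.

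Across the 3 groups, 11 of the 78 genes (14.1%) passed limma's moderated F-test at an unadjusted p below 0.05, against 21.3% of all genes tested. On the FPKM as deposited 26 genes passed (33.3%), against 26.7%, so the share lay below the background on the first scale and above it on the second. On the rescaled values the 11 were Mrpl52, Mrpl4, Mrps5, Mrpl30, Mrpl2, Mrps24, Mrpl21, Mrpl43, Mrpl42, Mrpl3 and Mrpl58. Mrpl52 alone passed the adjustment in limma (unadjusted p = 0.000361, adjusted p = 0.0281), against 2.53% of all genes. Its adjusted p lay between 0.0250 and 0.123 over 17 alternatives and was under 0.05 in 8 of them. Mrpl30 was higher than Ctrl in both arthritic groups, by 0.42 ± 0.11 (SE) in CIA and 0.39 ± 0.11 (SE) in CIA+THz, both small beside those of Mrpl52 (limma, unadjusted p = 0.00553 and 0.00865). Mrps24, named after its values were seen, was at 15.7, 21.6 and 17.9 in Ctrl and at 30.5, 25.7 and 29 in CIA. Of its exons, 226 bases are shared with Urgcp on the same strand.

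Of the other genes chosen for their role in the ribosome, none passed the criterion in a comparison after rescaling. On the FPKM as deposited Mrpl3, Mrpl12, Mrpl44, Mrpl45, Mrpl58, Mrps12 and Mrps27 passed it as higher in CIA+THz against Ctrl. Mrpl12, the stalk protein that is present in several copies, was at 22.9, 13.1 and 14.2 in Ctrl, at 32.7, 19.5 and 20.9 in CIA and at 25.1, 24.9 and 22.8 in CIA+THz, and the groups overlapped. Its log2 fold change was 0.54 ± 0.28 (SE; limma, unadjusted p = 0.0884) in CIA and 0.58 ± 0.21 (SE; unadjusted p = 0.0275) in CIA+THz against Ctrl. Mrpl58, a peptidyl-tRNA hydrolase that frees stalled chains, was higher in CIA than in Ctrl by 0.53 ± 0.20 (SE; unadjusted p = 0.0340), at 8.72, 11.5 and 11.3 against 7.72, 8.19 and 5.84. Mrpl45, which tethers the ribosome to the inner membrane, overlapped between all groups, with group means of 8.52 ± 2.67, 11.3 ± 2.52 and 12.7 ± 4.14 (SD, n = 3) in Ctrl, CIA and CIA+THz.

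Mrpl3 and Mrpl44, 2 large-subunit proteins, were higher in CIA+THz than in Ctrl by 0.43 ± 0.15 and 0.46 ± 0.19 (SE; limma, unadjusted p = 0.0232 and 0.0438). In CIA the differences were 0.28 ± 0.14 and 0.45 ± 0.21 (SE), with unadjusted p of 0.0826 and 0.0748. In the small subunit, Mrps12 of the decoding centre was at 3.65, 10.1 and 5.15 in Ctrl and at 8.59, 7.88 and 11.3 in CIA, and overlapped (0.66 ± 0.37, SE; unadjusted p = 0.117). Mrps22, Mrps27 and Mrps34, which have no bacterial counterpart, did not pass the test in any comparison, with log2 fold changes in CIA against Ctrl of -0.58 ± 0.51, 0.16 ± 0.40 and 0.41 ± 0.26 (SE).

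The 3 paralogues of Mrps18 each fill a different place in the ribosome, and 1 of them differed in level from the others. Mrps18a averaged 12.5, Mrps18c 10.1 and Mrps18b 3.33 rescaled FPKM over all libraries. The range of Mrps18b, at 1.75 to 4.80, lay below those of the other paralogues, at 5.78 to 18.7 and 5.40 to 16.3, which overlapped. None of them passed the test in a comparison, and in CIA against Ctrl their log2 fold changes were 0.46 ± 0.39, 0.32 ± 0.34 and -0.35 ± 0.37 (SE) for Mrps18a, Mrps18c and Mrps18b.

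Other genes of mitochondrial translation did not all shift with the ribosomal proteins. In CIA against Ctrl the median log2 fold change was -0.03 over 15 translation factors, -0.05 over 21 assembly factors, 0.30 over 20 genes that charge mitochondrial tRNA (aminoacyl-tRNA synthetases and 3 subunits of the amidotransferase that completes glutaminyl-tRNA) and -0.24 over 14 genes of mitochondrial DNA maintenance and transcription. At an unadjusted p under 0.05, 1 higher and 0 lower translation factors, 0 and 0 assembly factors, 1 and 2 charging genes (Sars2 higher, Ears2 and Mars2 lower) and 0 and 1 genes of the last list were called. Of all genes tested, 8.85% were higher and 8.45% lower at that p. Oxa1l, which inserts the newly made chains into the inner membrane, was the translation factor that rose, from 16.4, 18 and 15.0 in Ctrl to 20.4, 24.1 and 21.4 in CIA (0.41 ± 0.13, SE; limma, unadjusted p = 0.0177). Polrmt, the mitochondrial RNA polymerase, was lower in CIA by a log2 fold change of -0.52 ± 0.19 (SE; unadjusted p = 0.0297).

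Of 5 ribosomal proteins that do not carry an Mrp symbol, 2 differed between CIA and Ctrl and in opposite directions. Aurkaip1 was at 3.73, 2.98 and 4.14 in Ctrl and at 5.03, 6.91 and 5.17 in CIA (0.64 ± 0.24, SE; limma, unadjusted p = 0.0301). Ptcd3, a small-subunit protein with pentatricopeptide repeats, was at 4.14, 4.66 and 3.56 in Ctrl and at 2.08, 1.82 and 2.66 in CIA (-0.89 ± 0.26, SE; unadjusted p = 0.0110). Both pairs of groups were apart.

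In CIA+THz against CIA the medians were 0.24 over the translation factors, -0.03 over the assembly factors, 0.28 over the charging genes and 0.25 over the maintenance and transcription genes, and limma gave none of these genes an unadjusted p under 0.05. Against Ctrl the CIA+THz medians were 0.32, 0.04, 0.39 and 0.04, and limma called 2 translation factors, 1 assembly factor (Ybey) and 5 charging genes (the synthetases Aars2, Vars2, Rars2 and Iars2 and the amidotransferase subunit Gatb) as higher and 0 as lower at an unadjusted p under 0.05. Of all genes tested, 8.39% were higher and 9.69% lower at that p, and 5.89% and 7.33% in CIA+THz against CIA. Tufm, the elongation factor that brings aminoacyl-tRNA to the ribosome, was at 6.35, 7.40 and 8.32 in Ctrl and at 11.7, 9.05 and 10.8 in CIA+THz (0.51 ± 0.17, SE; unadjusted p = 0.0185). Aars2, the alanyl-tRNA synthetase, was at 0.189, 0.500 and 0.152 in Ctrl and at 1.07, 0.931 and 0.915 in CIA+THz (1.60 ± 0.46, SE; unadjusted p = 0.00980). Oxa1l, Polrmt, Aurkaip1, Tufm and Iars2 were named after their values were seen. No gene of these lists passed the adjustment in any comparison. The 13 mitochondrially encoded subunits that this ribosome makes were not analysed here.

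The 82 cytosolic ribosomal protein genes tested are the closest set outside the mitochondrion. In CIA against Ctrl their median log2 fold change was 0.25, beside 0.24 for the mitochondrial set. There 77 of the 82 had a fold change above 0, beside 57 of the 78. At an unadjusted limma p under 0.05, 22 were higher and 1 lower, beside 13 and 1 of the 78. Of all genes tested, 8.85% were higher and 8.45% lower. In CIA+THz against CIA the median was -0.25, beside -0.05 for the mitochondrial set and 0.03 over all genes tested. At an unadjusted limma p under 0.05, 33 of the 82 were lower, beside 5 of the 78 and 7.33% of all genes tested. Against Ctrl the median was 0.01 in CIA+THz, beside 0.23. The value of -0.25 is smaller in size than the 0.28 by which rescaling moved CIA+THz against CIA. The same factor was applied to all genes of a library, so the median of all genes moved with it. The sets were not tested against each other.

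Markers of blood cell types moved beside these genes, and the counts of markers here are at an unadjusted limma p under 0.05. Of all genes tested, 8.85% were higher and 8.45% lower at that p in CIA against Ctrl. The shares were 5.89% and 7.33% in CIA+THz against CIA, and 8.39% and 9.69% in CIA+THz against Ctrl. Monocyte markers were higher than in Ctrl for 9 of 12 in CIA and for 8 of 12 in CIA+THz, with median log2 fold changes of 0.87 and 0.69, and for 6 the irradiated level was below that of CIA. Their summed level, to which abundant genes contribute most, was 5665 to 6336 rescaled FPKM in CIA, 3415 to 3728 in Ctrl and 3863 to 4198 in CIA+THz. The 12 neutrophil markers summed to 12678 to 21421 in Ctrl, 14771 to 19457 in CIA and 10855 to 12339 in CIA+THz, and the irradiated group was lower than CIA for 9 of them. In CIA against Ctrl the list split. Camp, Ltf and Ngp were higher (log2 fold changes 4.86, 4.08 and 3.02), and Mmp8 and Cxcr2 were lower (-1.35 and -0.36). In CIA+THz against Ctrl, 3 neutrophil markers were higher and 6 lower. The 12 erythroid markers summed to 81363 to 125635 in Ctrl, 99853 to 114167 in CIA and 55649 to 77272 in CIA+THz, and 7 of them were lower in CIA+THz than in Ctrl. Of 12 T cell markers 5 were lower in CIA than in Ctrl, 9 had higher levels with irradiation than without it, and their sum was 465 to 521 in Ctrl, 364 to 393 in CIA and 465 to 617 in CIA+THz. Of 10 B cell markers 8 were higher in CIA+THz than in Ctrl, of 9 platelet markers 6 were below their CIA level in CIA+THz, and of 7 NK markers tested 5 were lower in CIA than in Ctrl. Klra8, 1 of 8 NK markers, was at 0 in all 9 libraries, and no other marker measured was at 0 in any. The part of these shifts in the levels of the mitochondrial ribosomal protein genes was not tested.

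The 78 genes were all matched by symbol to GENCODE on GRCm38, the build named in the labels, and all were protein coding. They lay on 17 chromosomes, with 11 on chromosome 11 and 8 on chromosome 17, so the set is not a gene cluster. A start of another coding gene on the opposite strand within 1000 bases upstream was annotated for 18 of them (23.1%), against 10.2% of the 12142 protein-coding genes tested. Mrpl52 lies on chromosome 14 (54426909 to 54429756, forward strand), Mrpl2 on chromosome 17 (46646229 to 46650139, forward) with the divergent Klc4 at a distance of 207 bases, and Mrps5 on chromosome 2 (127587222 to 127606829, forward) with Zfp661 at 128 bases. Mrpl30 lies on chromosome 1 (37890477 to 37898535, forward) with Mitd1 at 66 bases. None of these 4 shares exons with another annotated protein-coding gene.

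Exons of 20 genes overlap a protein-coding gene on the opposite strand and those of 4 a protein-coding gene on the same strand. Reads of these overlaps cannot be separated by strand. Overlaps with noncoding genes were not examined. Mrpl46 and Mrps11, 1 gene of each subunit, start head to head on chromosome 7 and were paired here after the values of Mrps11 were seen; they share 173 exon bases. Mrpl46 was at 1.46, 1.05 and 1.26 in Ctrl, at 1.92, 2.11 and 0.884 in CIA and at 1.35, 1.35 and 0.616 in CIA+THz. Mrps11 was at 3.86, 0.780 and 1.37 in Ctrl, at 2.64, 3.45 and 3.15 in CIA and at 3.86, 3.67 and 3.22 in CIA+THz. The low libraries of Mrps11, Ctrl 2 and Ctrl 3, were not the lowest of Mrpl46, which were CIA+THz 3 and CIA 3. Mrpl21, which rose in CIA, shares 117 exon bases with Ighmbp2, which was at 6.69, 4.08 and 4.30 in Ctrl and at 7.62, 9.87 and 4.57 in CIA.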

How the data were processed

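RNA of the blood of 9 mice, 3 per group, had been sequenced by the authors, who deposited FPKM values for 20926 genes in 1 column per library. The submitters' processing notes name mm10, HISAT2 and StringTie without a role or order, and the labels a TruSeq RNA kit that does not mark strand; the annotation and strand setting used for counting are not given in the sources used here. FPKM hold no counts, so the precision of low genes could not be computed, and relative depth was read from ratios of values under 0.2 FPKM.

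Groups were taken from the labels. To rescale, the median ratio of each library to the geometric mean was taken over 10312 genes with no 0 value, and its values were divided by it. For the 12366 genes with a mean of at least 0.1, log2(rescaled FPKM + 0.1) was tested with limma 3.58.1 in R 4.3.3, with moderated variances that follow the mean, with 6 libraries per pair or all 9 for the F-test. Fold changes understate those of low genes. The criterion, an unadjusted p under 0.05 with an absolute log2 fold change above 0.67, is that of the study, and Benjamini-Hochberg adjusted values were computed over all genes tested. The limma p-values measure the spread between mice. Replicate numbers name different mice and pair no animals. With 3 against 3 an exact permutation test cannot go below 0.1, so none was run.

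Named genes were the 5 smallest p across groups, up to 5 higher and 5 lower past the criterion per comparison, the 5 highest and 3 lowest levels, and 13 fixed by role, with list genes by the same criterion. The others are marked as named after their values were seen, or are neighbours or exon partners of a named gene. The members and lists were chosen with earlier results of these data known. Copies of these genes elsewhere in the genome were not examined. The fit was tested on simulated data. Alternatives covered scaling, pseudocount, filters, the variance model, the samples in the fit, the replicate block, each library left out and the call rule. Sums and medians without Mrps25 were added after seeing the data.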

Additional observations from a re-analysis of the deposited data

How the results depend on the processing

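Calls between groups rested on unadjusted p-values and 3 mice per group. In CIA against Ctrl the criterion called 6 genes; the count was 0 with adjusted p, 14 without the fold limit, 2 with a pseudocount of 1 and 10 with all 3 groups in 1 fit. The median of the 78 was 0.24 and stayed above 0 throughout, between 0.17 (without Ctrl 1) and 0.35 (without CIA 3); the calls then lay between 5 and 9. In CIA+THz against CIA the count of 1 became 0 with adjusted p, 8 without the fold limit, 5 with FPKM as deposited, 7 with scaling to summed FPKM, 0 with a pseudocount of 1, and 2 with a filter at a mean of 1 or with all 3 groups in 1 fit; leaving out a library gave 1 to 5, with 2 without CIA 1, 5 without CIA 3 and 3 without CIA+THz 2 or CIA+THz 3. The median of -0.05 became 0.22 with FPKM as deposited and 0.27 with scaling to summed FPKM, by the construction of those scales, which lack the rescaling; leaving out a library gave -0.10 (without CIA 3) to 0.02 (without CIA+THz 3). In CIA+THz against Ctrl the count of 3 became 0 with adjusted p, 12 without the fold limit, 19 with FPKM as deposited and 18 with scaling to summed FPKM; leaving out a library gave 2 to 9, with 9 without Ctrl 2, 6 without Ctrl 3 and 2 without CIA+THz 2, and the median of 0.23 became 0.54 on both of those scales. Across the 3 groups the 11 genes became 1 with adjusted p and 26 (33.3%) on both of those scales, against 26.7% and 27.6% of all genes, and 10 to 16 when a library was left out. With a single library left out, the medians in CIA+THz against Ctrl were 0.20 to 0.25. The cause of the other differences was not tested. Leaving out Mrps25, added after seeing the data, gave medians of 0.25, -0.04 and 0.24 in the 3 pairs.

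With the replicate block the criterion called 8, 1 and 3 genes in these pairs and 16 across the groups. Correlations of same-numbered libraries lay between -0.05 and 0.03, and 3 of 9 libraries matched their own number best, so the numbers are names only. Of 1260 further values for single genes, 1182 kept their call, 37 gained and 41 lost the criterion. Direction was followed only where the criterion was met, so other values among the 1182 can have changed sign.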
